A study of Homo sapiens with 6 samples.

Results

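Small nucleolar RNA host genes were followed as 34 of the 37822 gene symbols in a count table from Huh7 cells. They are every symbol that starts with SNHG and digits, 28 in all, together with GAS5, ZFAS1, EPB41L4A-AS1, DANCR, CYTOR and MEG3. The rule uses gene names, though it was written with earlier results of these data known. GENCODE v29 places no small nucleolar RNA inside CYTOR, MEG3 or SNHG27, which are counted among the host genes by the rule alone. None was matched inside GAS5 either, so its small RNAs were not analysed. Huh7 is a human hepatocellular carcinoma cell line, labelled wild type in all 6 libraries. The 3 FLAG libraries came from cells infected with a lentivirus for the FLAG tag, the negative control, and the 3 VPS72 libraries from cells infected with a lentivirus to overexpress VPS72, a subunit of the chromatin remodelling complexes that place the histone variant H2A.Z. Both groups were exposed to virus for 24 h, and the sources used here do not state the promoter that drives VPS72. Total RNA was measured in bulk, so that fewer cells expressing a gene and less RNA per cell cannot be told apart. The labels do not name separate cultures, and the p-values below rest on differences among libraries that may be technical repeats.

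Small nucleolar RNAs are short nuclear RNAs that guide the chemical modification of ribosomal RNA and other RNAs. Box C/D RNAs guide ribose methylation with the proteins FBL, NOP56, NOP58 and SNU13, and box H/ACA RNAs guide pseudouridine formation with DKC1, NHP2, NOP10 and GAR1. In vertebrates most of them are cut from the introns of a longer transcript, the host. Some hosts encode ribosomal proteins or translation factors. Most SNHG genes are hosts whose spliced RNA holds no long reading frame, and for several of them, GAS5 and ZFAS1 among them, that spliced RNA is degraded by nonsense-mediated decay while it is being translated. Many hosts begin with a C and a run of pyrimidines, a 5' terminal oligopyrimidine start that ties translation of the RNA to growth signals through mTORC1 and LARP1.

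The first 25 bases of 6 host transcripts described below are shown because their annotated starts differ in the run of pyrimidines. They are RefSeq starts on GRCh38.p14, read on the strand of the gene, with the unbroken pyrimidines counted from the start in capitals. The loci are chr6:85678709-85678733, minus strand, for SNHG5; chr20:49278642-49278666, plus strand, for ZFAS1; chr5:139274101-139274125, plus strand, for SNHG4; chr11:62855861-62855885, minus strand, for SNHG1; chr20:38435304-38435328, minus strand, for SNHG17; and chr17:16438987-16439011, plus strand, for SNHG29. Each begins the first exon of its gene.
SNHG5: CTTTTacgtcggccttcgcgagcgt
ZFAS1: CTTTCgcgtctgcggtgcccggagt
SNHG4: CCCTTTCCCCTCCggcctctgccgg
SNHG1: CTCatttttctactgctcgtggtaa
SNHG17: agtccttcgccgtccctcgccgtcc
SNHG29: ggattgggatattccgactccttaa

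SNHG5, ZFAS1 and SNHG4 begin with C and at least 5 pyrimidines in a row, SNHG1 begins with C and a tract of 3, and SNHG17 and SNHG29 begin with a purine. A start was found in the RefSeq table for 30 of the 34 host genes. Counting a start as pyrimidine-rich when its first base is C and the first 5 bases are all C or T, read on the strand of the gene only, 7 of the 30 had one (23.3%): SNHG4, SNHG5, SNHG12, SNHG18, SNHG19, SNHG32 and ZFAS1. Among 30 hosts that encode proteins, such as RPL7A and EEF2, 23 had a start in the table and 15 of those met the count (65.2%), against 5.14% of 27305 genes with a start. A match of letters is a description of the annotated first bases and was not tied to translation here. Where transcription starts in Huh7 was not measured, so a host outside the count may still have such a start in these cells.

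The libraries held 21345279 to 29091824 counts each. Host genes took 26764 to 35631 of these, or 0.118% to 0.125% of a library. VPS72 itself had 511 to 686 counts in the FLAG libraries and 27483 to 33086 in the VPS72 libraries, a 48.5-fold difference. All 10 hepatocyte markers were detected. By edgeR's quasi-likelihood test 7 rose at an adjusted p under 0.05, where 88 of 14253 tested genes passed (0.617%). AFP, the fetal serum protein kept by many hepatocellular carcinomas, had a log2 fold change of 0.22 ± 0.02 (SE; edgeR adjusted p = 5.9e-05). The summed level of the 10 markers was 19260 to 20080 counts per 1000000 counts of the scaled library (CPM) in FLAG and 21720 to 22540 CPM in VPS72. They are abundant, with a median level of 1050 CPM and a median SE of 0.028. SERPINA1, a protease inhibitor, and FGB, a fibrinogen chain, had log2 fold changes of 0.23 ± 0.03 (SE; edgeR adjusted p = 0.000542) and 0.23 ± 0.03 (SE; edgeR adjusted p = 0.00123). APOA1, HNF4A and FOXA2 did not pass the test. FOXA2 had a log2 fold change below 0, at -0.09 ± 0.05 (SE; edgeR adjusted p = 0.487). Markers of other cells were low: 10.05 to 11.34 against 10.12 to 10.61 CPM summed over 5 fibroblast genes, led by COL1A1 and PDGFRB; 10.38 to 12.4 against 12.86 to 14.02 CPM over 5 immune genes, nearly all of it LYZ; and 2.838 to 4.552 against 4.129 to 4.937 CPM over 5 endothelial genes, led by PECAM1. Of these 3 lists only 4 fibroblast genes, LYZ and PECAM1 had enough counts to be tested. None of them passed, at an edgeR adjusted p of 0.371 or more. The part of the marker changes in the host gene values was not tested.

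Most host genes were expressed in Huh7. Of the 34, 29 had enough counts to be tested and 5 did not. SNHG18 and SNHG28 held 0 counts in all 6 libraries, where a count of 0 allows up to 3 counts, or 0.103 to 0.141 CPM depending on the library. SNHG27 had 4 counts in FLAG library 2 and 0 in the other 5. MEG3, an imprinted non-coding RNA of the DLK1 region, had 1, 2 and 0 counts in FLAG libraries 1 to 3 and 0, 0 and 1 in the VPS72 libraries. SNHG14, the imprinted transcript of the Prader-Willi region that carries the SNORD115 and SNORD116 arrays, had 12, 8 and 2 counts in FLAG and 6, 5 and 3 in VPS72, or 0.292 ± 0.188 and 0.175 ± 0.043 CPM (SD, n = 3). These 5 genes were at or near 0 in both groups, and no change in them was detectable at this depth. For comparison, 44.0% of 2113 rows named LINC and digits and 32.1% of 1258 rows ending in -AS and digits held 0 counts in all 6 libraries, against 5.88% of the host genes.

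The counts sat in few genes. The 10 most abundant host genes held 85.7% of host gene counts and SNHG29 alone 28.4%, and means of the tested genes spanned 461-fold. Only SNHG29, SNHG3, SNHG1 and SNHG16 averaged at least 100 CPM. Divided by the median length of the gene's GENCODE v29 transcripts, the FLAG order was SNHG29 (447 CPM per kb), SNHG1 (172), GAS5 (112), DANCR (90.2), CYTOR (87.1), SNHG16 (74.8), SNHG17 (61.5), SNHG3 (61.3), SNHG5 (54.3) and ZFAS1 (45.1), down to SNHG22 at 1.11 CPM per kb. SNHG17 and SNHG3 did not differ beyond the spread between libraries on this scale, and neither did DANCR and CYTOR.

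**Figure D1:**
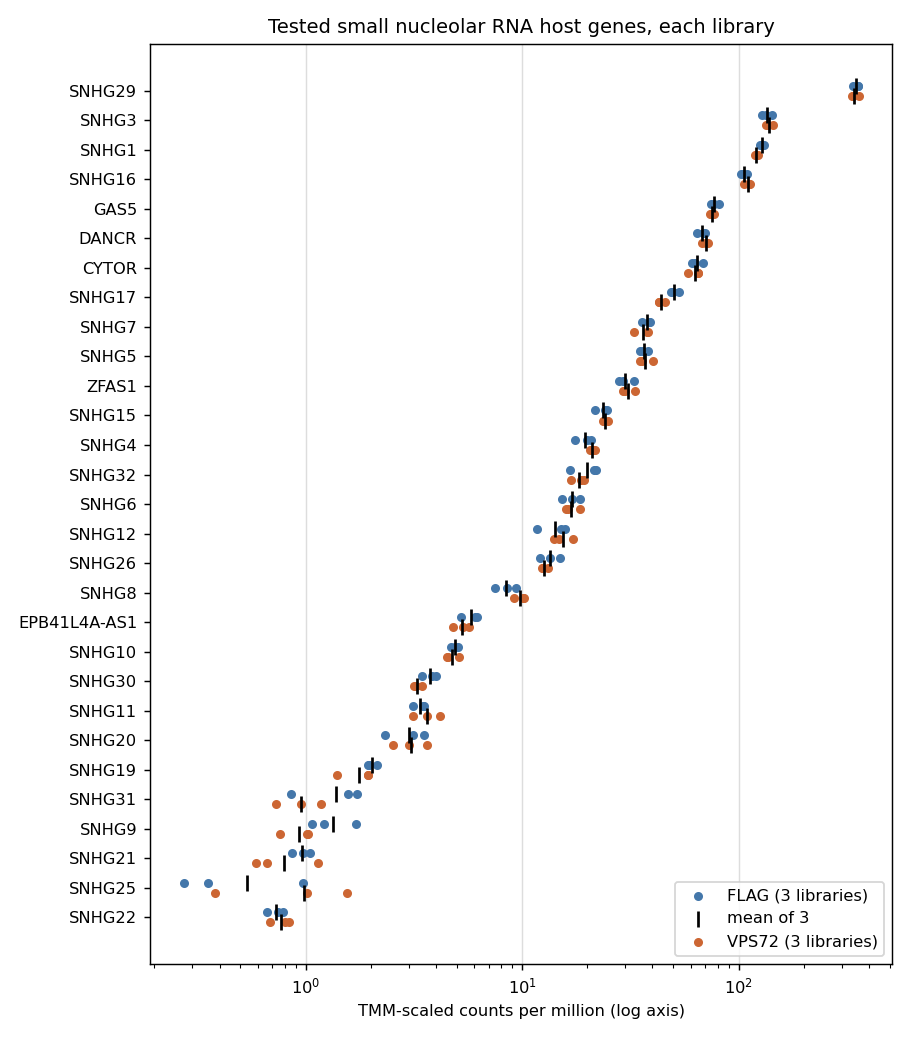
Level of each of the 29 tested host genes in each library, in CPM on a log axis; each point is 1 library (FLAG blue, VPS72 orange) and each tick the mean of 3. Levels fall from 334 to 359 CPM for SNHG29 to under 1 CPM for SNHG22, and the points of the groups overlap for 24 of the 29 genes.

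Host gene RNA as a whole did not differ between the groups by more than the spread between libraries. The summed level was 1198, 1238 and 1245 CPM in FLAG libraries 1, 2 and 3 and 1239, 1206 and 1190 CPM in VPS72 libraries 1, 2 and 3. The means were 1227 ± 25.3 and 1212 ± 24.8 CPM (SD, n = 3), a ratio of 0.987, and the groups overlapped. No single host gene passed the test: 0 of 29 had an edgeR adjusted p under 0.05, where 88 of 14253 tested genes did (0.617%; 0.421% higher and 0.196% lower). At an unadjusted p under 0.05 edgeR called 2 of 29 (6.9%), SNHG17 and SNHG1, against 11.5% of all tested genes. DESeq2 gave an adjusted p to 10 of the 29, the most abundant ones, and to 5687 genes in all; it called 0 of the 10 and 4.38% of the 5687, and the other 19 could not be called by it. At an unadjusted p under 0.05 DESeq2 called the same number of host genes as edgeR, 2 of 29. limma-voom called 0 host genes and 0.898% of all genes. After cyclic loess scaling limma-voom called 0 host genes and 0.547% of all genes, and edgeR without a filter on low counts 0 and 1.06%.

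Fold changes lay on both sides of 0. The log2 fold change, VPS72 over FLAG, was positive for 13 and negative for 16 of the 29, with a median of -0.02 beside -0.0038 over all tested genes. For the 17 host genes with a mean of at least 10 CPM it ran from -0.21 to 0.12 with a median of -0.0015, beside a median of 0.0071 over the 9095 genes of that abundance. The 95% interval of the fold change lay within 1.5-fold in either direction for all 17 of these. Of all 29, 25 had an interval within 2-fold. The FLAG and VPS72 libraries did not overlap for 5 host genes, SNHG1, SNHG17, SNHG30, SNHG19 and SNHG9, each lower in VPS72, which is 17.2% of the 29; over all tested genes the share was also 17.2% (8.76% higher and 8.47% lower).

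**Figure D2:**
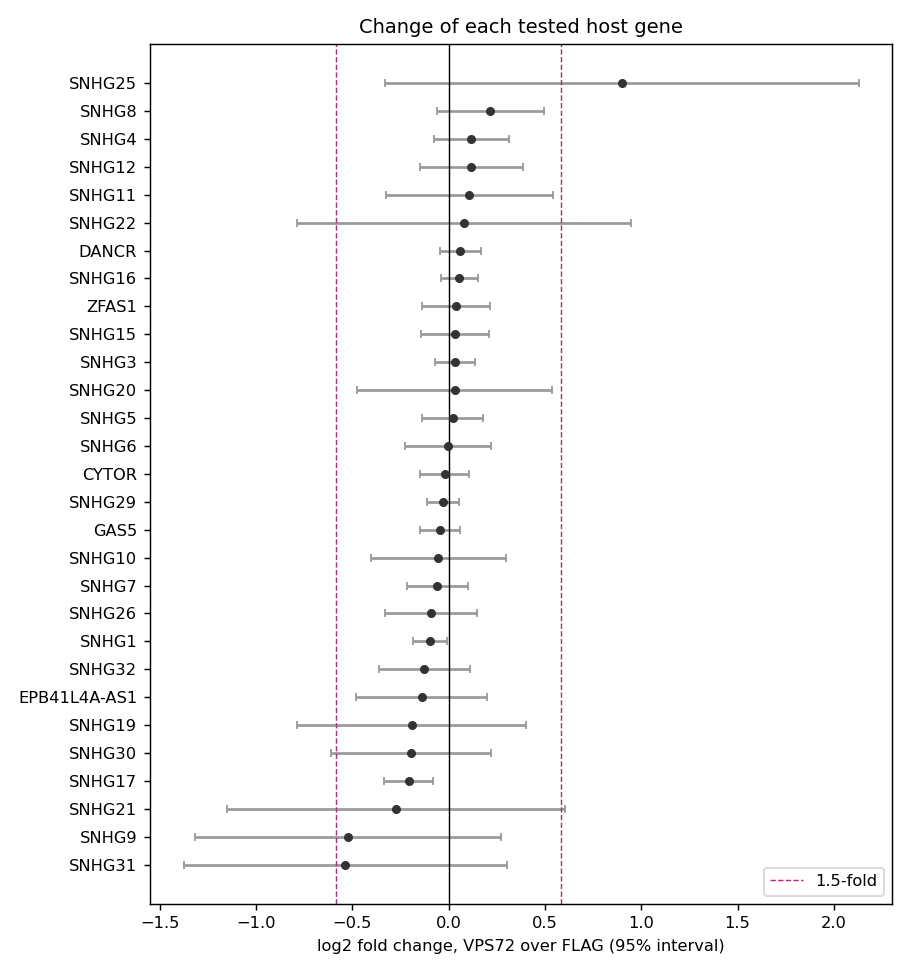
Log2 fold change of each of the 29 tested host genes, VPS72 over FLAG, with its 95% interval; the solid line marks no change and the dashed lines 1.5-fold in either direction. Intervals are narrow for the abundant genes, such as -0.11 to 0.05 for SNHG29, and wide for rare ones, such as -0.33 to 2.13 for SNHG25.

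SNHG29, annotated in GENCODE v29 as LRRC75A-AS1, is the host of the box C/D RNAs SNORD49A, SNORD49B and SNORD65. Its level was 338, 357 and 356 CPM in FLAG libraries 1 to 3 and 359, 336 and 334 CPM in VPS72 libraries 1 to 3, from 7643 to 10313 counts. FLAG library 1 and VPS72 libraries 2 and 3 were low and the groups overlapped. The log2 fold change was -0.03 ± 0.04 (SE; edgeR adjusted p = 0.841).

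SNHG3 lies just upstream of RCC1 and hosts the box H/ACA RNAs SNORA73A and SNORA73B. Its levels were 128, 134 and 143 CPM in FLAG and 144, 136 and 134 CPM in VPS72, with FLAG library 1 lowest, and the log2 fold change was 0.03 ± 0.05 (SE; edgeR adjusted p = 0.866). RCC1, which shares exon bases with SNHG3 on the same strand and encodes a nucleotide exchange factor, had a log2 fold change of 0.07 ± 0.05 (SE; edgeR adjusted p = 0.584). SNHG16, the host of SNORD1A, SNORD1B and SNORD1C, measured 105, 103 and 110 CPM in FLAG and 111, 112 and 106 CPM in VPS72. VPS72 library 3 fell inside the FLAG range.

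SNHG1 hosts a cluster of box C/D RNAs that includes SNORD22 and SNORD25 to SNORD28. It measured 129, 131 and 126 CPM in FLAG and 120, 119 and 122 CPM in VPS72. Every VPS72 library was below every FLAG library, and the estimated difference was -6.47%. The log2 fold change was -0.10 ± 0.04 (SE) with an interval of -0.18 to -0.01; the edgeR p was 0.0341 before adjustment and 0.377 after. The unadjusted p ran from 0.0304 to 0.111 over fits that each left out 1 library.

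SNHG17 hosts SNORA71A, SNORA71B, SNORA71C and SNORA71D. Its levels were 49.9, 52.9 and 48.7 CPM in FLAG and 45.5, 43.0 and 42.7 CPM in VPS72, again without overlap. This was the smallest p among the host genes: the log2 fold change was -0.21 ± 0.06 (SE), with an interval of -0.34 to -0.08, an edgeR p of 0.00351 before adjustment and 0.15 after. Its estimate stayed between -0.24 and -0.17 in each scaling, filter, test and leave-out that was tried, and its adjusted p between 0.075 (DESeq2) and 0.381. SNHG11 starts near SNHG17 on the other strand of chromosome 20, and its log2 fold change was 0.11 ± 0.20 (SE; edgeR adjusted p = 0.906).

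GAS5 is the growth arrest-specific transcript, whose spliced RNA accumulates when translation stalls and has been described as a decoy for the glucocorticoid receptor. It measured 76.9, 80.9 and 74.3 CPM in FLAG and 74.4, 73.6 and 76.9 CPM in VPS72, which overlap, and its log2 fold change was -0.05 ± 0.05 (SE; edgeR adjusted p = 0.799). DANCR, named for antagonizing differentiation and host of SNORA26, measured 64.6, 69.7 and 68.1 CPM in FLAG and 72.2, 70.8 and 68.0 CPM in VPS72. VPS72 libraries 1 and 2 exceeded all FLAG libraries and VPS72 library 3 did not, with a log2 fold change of 0.06 ± 0.05 (SE; edgeR adjusted p = 0.715). CYTOR, the cytoskeleton regulator RNA formerly called LINC00152, measured 62.7, 68.3 and 60.8 CPM in FLAG and 65.2, 65.2 and 58.6 CPM in VPS72, and the groups overlapped.

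SNHG7, SNHG5 and ZFAS1 completed the abundant set or lay just under it. SNHG7 measured 38.8, 35.9 and 38.5 CPM in FLAG and 32.9, 37.7 and 38.2 CPM in VPS72, where VPS72 library 1 alone lay below the FLAG range. SNHG5, host of SNORD50B, measured 34.9, 36.3 and 38.3 CPM in FLAG and 40.3, 35.8 and 34.8 CPM in VPS72, where VPS72 library 1 was the highest of all 6. ZFAS1, antisense to ZNFX1 and host of the SNORD12 RNAs, was 30.0 ± 2.60 CPM in FLAG and 30.7 ± 2.08 CPM in VPS72 (SD, n = 3). VPS72 library 1, the deepest, held the highest level of 10 of the 29 host genes, and FLAG library 1 the lowest of 9.

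The remaining host genes above 10 CPM were SNHG15, SNHG4, SNHG32, SNHG6, SNHG12 and SNHG26. Their group means ran from 12.7 to 24.1 CPM and their log2 fold changes from -0.13 for SNHG32 to 0.12 for SNHG4 and SNHG12. SNHG4, which lies beside MATR3, measured 17.6, 20.9 and 19.9 CPM in FLAG and 21.6, 21.1 and 20.5 CPM in VPS72. It had the third largest estimate above 0, 0.12 ± 0.09 (SE; edgeR adjusted p = 0.686), and its FLAG library 2 lay within the VPS72 range. None of the 6 separated the groups.

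The host genes below 10 CPM held the largest estimates and the widest intervals. SNHG8, host of SNORA24, measured 7.48, 8.52 and 9.35 CPM in FLAG and 10.2, 10.0 and 9.16 CPM in VPS72, from 192 to 293 counts, with a log2 fold change of 0.22 ± 0.13 (SE; edgeR adjusted p = 0.564). Only FLAG library 3 lay within the VPS72 range. SNHG25 had 7, 9 and 21 counts in FLAG and 11, 41 and 24 in VPS72, and its estimate of 0.90 ± 0.58 (SE; edgeR adjusted p = 0.603) came with an interval of -0.33 to 2.13. VPS72 library 2 was the high one: the estimate was 0.40 without it, and 1.63 without FLAG library 3. SNORD104, a box C/D RNA inside SNHG25, had 14, 8 and 29 counts in FLAG and 13, 36 and 18 in VPS72, and the groups overlapped.

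On the negative side, SNHG31 had 22, 40 and 37 counts in FLAG and 21, 25 and 28 in VPS72, with a log2 fold change of -0.54 ± 0.40 (SE; edgeR adjusted p = 0.662). FLAG library 1 lay within the VPS72 range. SNHG9, host of SNORA78, had 44, 31 and 23 counts in FLAG and 22, 27 and 24 in VPS72, or 1.72, 1.22 and 1.07 against 0.765, 1.02 and 1.01 CPM. Its libraries did not overlap once scaled to CPM, and the log2 fold change was -0.52 ± 0.37 (SE; edgeR adjusted p = 0.651). SNHG21 had 27, 22 and 21 counts in FLAG and 19, 30 and 14 in VPS72, at -0.27 ± 0.41 (SE; edgeR adjusted p = 0.869), with VPS72 library 2 the highest of all 6. The other low host genes, EPB41L4A-AS1, SNHG10, SNHG30, SNHG11, SNHG20, SNHG19 and SNHG22, had estimates from -0.20 to 0.11. SNHG30 and SNHG19 kept the groups apart, the latter by the difference between 1.949 and 1.947 CPM.

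**Figure D3:**
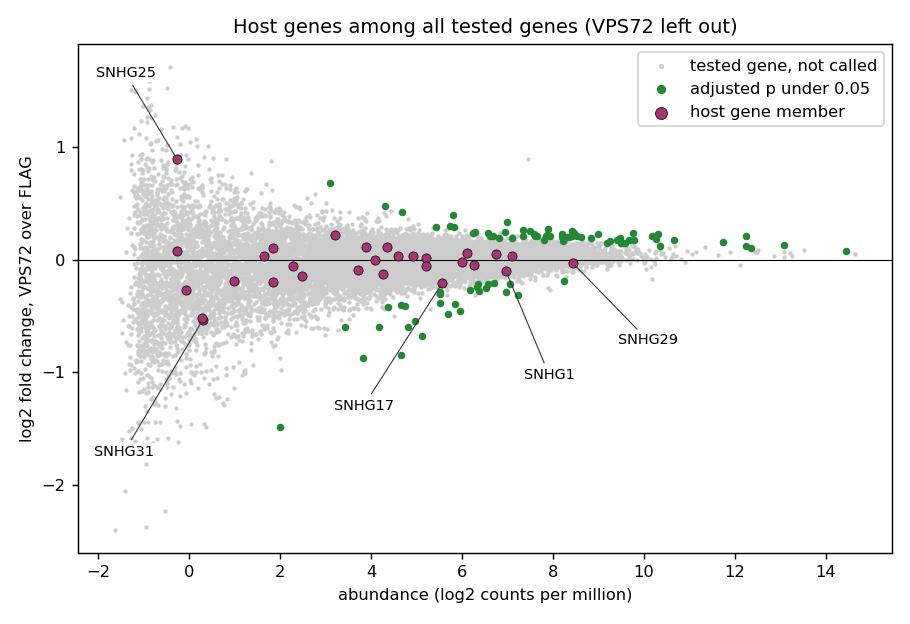
Log2 fold change of every tested gene, VPS72 over FLAG, against its mean abundance as log2 CPM, with VPS72 itself left out. Host genes are the large purple points and genes with an adjusted p under 0.05 are green; SNHG17 and SNHG1 lie below the line of no change among grey points of the same abundance, and no host gene is green.

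By annotated RefSeq start, the 6 tested host genes with a pyrimidine-rich start had a median log2 fold change of 0.03, from -0.19 to 0.12. The 19 without one in that annotation, SNHG1 and GAS5 among them, had a median of -0.05, from -0.54 to 0.22. SNHG6, SNHG9, SNHG15 and SNHG25, tested but without a start in the table, are in neither set, and SNHG25 has the largest estimate of the 29. The ranges overlap, and these medians are a description. The 30 protein-coding hosts, most of them genes for ribosomal proteins, had a median of 0.04, with 22 positive; 0 passed the test and 9 had an unadjusted edgeR p under 0.05 (11.5% of all tested genes did), all positive, among them RPL23A at 0.13 ± 0.05 (SE; edgeR adjusted p = 0.242). The most abundant of these, the elongation factor EEF2 and the chaperone HSPA8, stood at 1936 ± 63.2 and 1333 ± 24.7 CPM in FLAG and 1916 ± 99.2 and 1388 ± 25.03 CPM in VPS72 (SD, n = 3).

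Genes that assemble these RNAs into particles or degrade them were listed separately, and none of them passed the test. Over all tested genes 0.617% passed and 11.5% had an unadjusted edgeR p under 0.05. Of 14 box C/D proteins and assembly factors 0 were called by edgeR, with 0 at an unadjusted p under 0.05 and a median log2 fold change of 0.01. The core proteins NOP56 and NOP58 stood at 169 ± 0.517 and 105 ± 3.67 CPM in FLAG and 170 ± 6.61 and 99.0 ± 3.72 CPM in VPS72 (SD, n = 3). Of 6 box H/ACA proteins edgeR called 0, with 0 at an unadjusted p under 0.05 and a median of 0.02; the pseudouridine synthase DKC1 stood at 56.2 ± 0.984 and 56.5 ± 0.356 CPM and NOP10 at 67.3 ± 4.61 and 67.9 ± 1.64 CPM in FLAG and VPS72 (SD, n = 3).
Of 15 nonsense-mediated decay factors edgeR called 0 and 1 had an unadjusted p under 0.05, the exon junction protein CASC3 at -0.12 ± 0.04 (SE; edgeR adjusted p = 0.287). SMG1, the kinase of UPF1, was at 336 ± 14.2 CPM in FLAG and 341 ± 4.18 CPM in VPS72 (SD, n = 3). Of 15 exosome subunits and cofactors that were matched, edgeR called 0 and 3 had an unadjusted p under 0.05, beside 11.5% of all tested genes: EXOSC8, EXOSC10 and ZCCHC8, with log2 fold changes of -0.20, -0.09 and -0.11. The nuclear cofactor ZFC3H1, the second most abundant of that list, stood at 156 ± 2.73 and 154 ± 8.39 CPM. Of 8 regulators of pyrimidine-start mRNAs edgeR called 0 and LARP1 had an unadjusted p under 0.05, at 691 ± 6.77 CPM in FLAG and 725 ± 19.6 CPM in VPS72 (SD, n = 3), while LARP4 stood at 288 and 289 CPM.

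The small RNAs encoded inside the host genes have rows of their own in the count table. Those shown next are the ones whose counts carry the description that follows: near-identical or related copies inside the same host of which 1 held counts and the other none. They are GENCODE v29 transcripts on GRCh38, all on the plus strand of their host. SNORA73B is at chr1:28508559-28508762, SNORA73A at chr1:28507366-28507571, SNORD12C at chr20:49278940-49279028 and SNORD12 at chr20:49280683-49280772. Capitals mark the ACA box near the 3' end of the H/ACA RNAs, and the C box (TGATGA) and D box (CTGA) of the C/D RNAs.
SNORA73B: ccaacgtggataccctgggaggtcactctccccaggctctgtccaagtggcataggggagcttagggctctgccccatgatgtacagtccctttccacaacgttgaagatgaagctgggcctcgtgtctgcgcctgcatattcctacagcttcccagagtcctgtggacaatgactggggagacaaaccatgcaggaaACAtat
SNORA73A: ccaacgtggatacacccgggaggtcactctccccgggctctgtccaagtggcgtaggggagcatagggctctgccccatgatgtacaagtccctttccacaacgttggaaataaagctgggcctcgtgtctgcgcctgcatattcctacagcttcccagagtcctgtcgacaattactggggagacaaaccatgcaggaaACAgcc
SNORD12C: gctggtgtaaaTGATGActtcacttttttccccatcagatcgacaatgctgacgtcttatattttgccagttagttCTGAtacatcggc
SNORD12: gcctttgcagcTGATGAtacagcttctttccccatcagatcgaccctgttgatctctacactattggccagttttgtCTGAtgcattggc

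SNORA73B and SNORA73A are 204 and 206 bases long and differ by 14 single-base changes, insertions or deletions. SNORA73B had 3053, 2906 and 3162 counts in FLAG libraries 1 to 3 and 3987, 3183 and 3087 in the VPS72 libraries, close to the counts of its host SNHG3 (3076 to 4138), while SNORA73A had 0 in all 6. The log2 fold change of SNORA73B was 0.04 ± 0.08 (SE; edgeR adjusted p = 0.915). SNORA71B, inside SNHG17, had 62, 75 and 80 counts in FLAG and 84, 94 and 67 in VPS72, while SNORA71A, SNORA71C and SNORA71D had 0. In ZFAS1, SNORD12C had 27, 30 and 17 counts in FLAG and 11, 32 and 22 in VPS72, SNORD12B at most 7, and SNORD12 had 0 in all 6.

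Most of these rows were empty. GENCODE v29 places 134 snoRNA or Cajal body RNA rows of the table inside a host gene on its strand, and 120 of them held 0 counts in every library. SNHG14 alone accounts for 83, of which 82 were at 0. Of the 51 rows inside other hosts, 38 were at 0 and 13 held counts. Of these 7 were tested and edgeR called 0, with 0 at an unadjusted p under 0.05. Over all tested genes the shares were 0.617% and 11.5%, and 7 rows are too few to tell 0 from such shares. Whether a row held counts went with the annotation of the host. Where an exon of any annotated host transcript shares bases with the small RNA, 29 of 30 rows were at 0. The last, SNORD7 inside SNHG30, averaged 0.5 counts. Where no host exon overlaps the small RNA, 9 of 21 were at 0. SNORA73A is overlapped by an exon of 1 of the 3 SNHG3 transcripts and SNORD12 by 1 of the 10 ZFAS1 transcripts. SNORA73B and SNORD12C are overlapped by none. The split did not hold in SNHG17, where no exon of the 8 transcripts overlaps SNORA71A, SNORA71B, SNORA71C or SNORA71D and only SNORA71B held counts. The sources used here do not state how reads on overlapping features were assigned, so that an RNA that is absent and a row that could receive no reads cannot be told apart. Nor can reads of the mature small RNA and of unspliced host RNA. No small RNA row was matched inside GAS5, and its small RNAs were not analysed here.

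**Figure D4:**
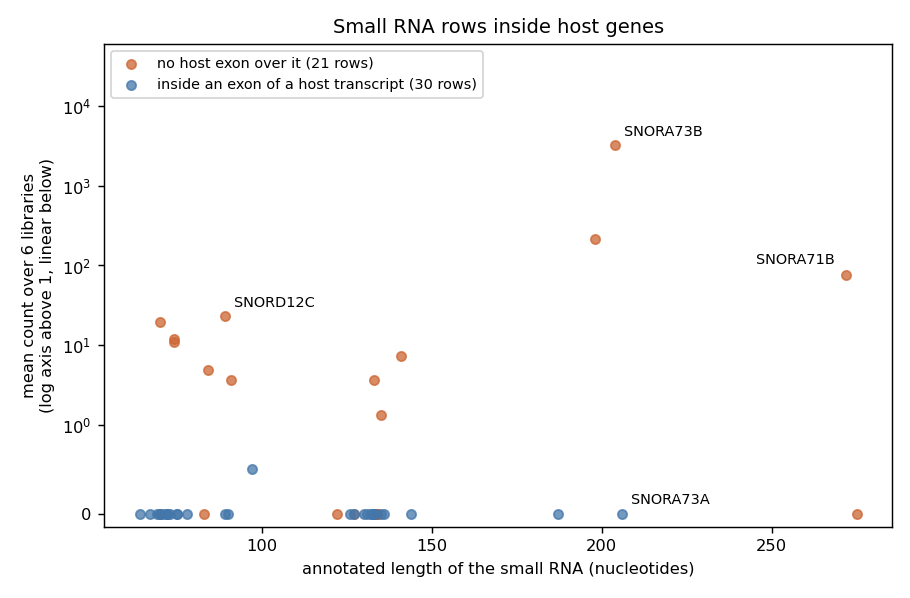
Mean count over the 6 libraries (log axis above 1, linear below) against annotated length in nucleotides, for the 51 small RNA rows inside host genes other than SNHG14. Rows that share bases with an exon of a host transcript (blue) lie at 0 apart from SNORD7. Rows that do not (orange) reach 3230 counts, for SNORA73B.

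Several host gene rows share exon bases with other genes in the same way. Of the 29 tested host genes 15 overlap the exons of another gene of the table, 3 of them on the same strand: SNHG3 with RCC1, SNHG4 with MATR3 and SNHG20 with SEC14L1. The log2 fold changes of those 3 partners were 0.07, -0.07 and 0.09, and their adjusted p by edgeR was at least 0.461. The other 12 overlap on the opposite strand only, and the sources used here do not state whether counting used the strand, so reads of such pairs cannot be told apart. For SNHG29 the partner LRRC75A had 0 to 10 counts, against at least 7643 for SNHG29. For ZFAS1 the partner ZNFX1 had 2638 to 3474 counts, more than the 695 to 953 of ZFAS1, and a log2 fold change of -0.01 ± 0.05 (SE). For GAS5 the antisense row GAS5-AS1 had 16 to 47 counts, against at least 1596 for GAS5.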

How the data were processed

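For each gene the authors deposited an estimated count, a whole number without normalization, for 3 FLAG and 3 VPS72 libraries of Huh7 cells; the unit was read from the values. STAR, RSEM and limma and the builds hg19 and hg38 are named without role or order, per the submitters' processing notes, so the build behind the table and its counting rule could not be told from the sources used here. Coordinates printed are those of the reference annotation. Groups and replicate numbers come from the titles. Library totals of 21345279 to 29091824 set the precision, and floors cover counting error only.

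Genes were kept by filterByExpr (minimum count 10, minimum total 15), which left 14253 of 37822 genes with 99.92% of the counts. TMM scaling and edgeR 4.0.16 (quasi-likelihood, R 4.3.3) compared VPS72 with FLAG over all of them, with p-values adjusted by Benjamini and Hochberg and a threshold of 0.05. CPM is a count per 1000000 counts after TMM scaling. A standard error is the log2 fold change divided by the square root of F. The script was tested on simulated counts. Alternatives were DESeq2 1.42.0, limma 3.58.1 (voom, with and without cyclic loess), other scalings and filters, the replicate number as a block, and leaving out each library. Same-numbered libraries did not deviate together, so the test has no block.

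The host genes and gene lists were chosen with earlier results of these data known. Values in every library are given for the 10 most abundant tested host genes and for the 3 largest estimates in each direction; other lists give up to 3 genes past the threshold, or the 2 most abundant where none passed; list genes named for an unadjusted p, overlap partners and small RNAs were chosen after their values were seen. Small RNAs were placed inside hosts, with strand and exons, from GENCODE v29 instead of the RefSeq gene table first planned. Starts are from RefSeq on GRCh38.p14. The exosome gene SKIC2 matched no row. Results that need items withheld for evaluation are not reported here.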

Additional observations from a re-analysis of the deposited data

How the results depend on the processing

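The count of host genes past the threshold was 0 in each of the 15 alternatives, over the host genes each could call: 23 with the stricter filter, and 10 with DESeq2, which gave the other 19 no adjusted p. The smallest adjusted p was 0.075, for SNHG17 with DESeq2. The median log2 fold change of tested host genes ran from -0.05 with library size only, which moved the median of all genes to -0.04, to 0.0021 without VPS72 library 3. The ratio of summed levels ran from 0.966 to 0.997. The number of genes called among all tested moved from 88 to 264 with no filter and 249 with DESeq2. Leaving out 1 library gave 25 (without FLAG 1) to 100 (without FLAG 2), with 42 without FLAG 3 and 35, 52 and 56 without VPS72 libraries 1, 2 and 3. Replicate numbers are shared in the titles, but same-numbered libraries correlated at -0.0486, 0.0284 and 0.0633 in their deviations; with the replicate block 32 genes were called, 0 of them host genes, and the numbers name libraries only.

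Over 429 estimates of the 29 host genes under an alternative, 23 changed sign, in 9 genes with estimates of at most 0.118 in size, and 20 genes kept theirs; the cause was not tested. SNHG5 was -0.011 and SNHG20 -0.00056 with library size only. SNHG6 (-0.0015) was 0.00040 with DESeq2 size factors, 0.0029 with no filter, 0.00030 with DESeq2, 0.0049 with limma-voom and 0.024 with cyclic loess. Over leave-outs the ranges were -0.015 to 0.11 for ZFAS1, -0.0044 to 0.20 for SNHG12, -0.041 to 0.061 for SNHG5, -0.055 to 0.030 for CYTOR, -0.018 to 0.071 for SNHG15, -0.096 to 0.014 for SNHG7, -0.11 to 0.16 for SNHG20, -0.0051 to 0.077 for SNHG3 and -0.070 to 0.063 for SNHG6. Depth limits the rare host genes: the interval of the fold change lay within 2-fold for 25 of 29, and the others lie below 10 CPM.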

Other observations

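Small nucleolar RNA rows outside the host genes followed the same split by annotation. Of 302 such rows, 197 overlap no exon of another gene in GENCODE v29 and 68 of these held 0 counts in all 6 libraries. Of the 103 that overlap an exon on their own strand, 88 were at 0. At lengths up to 100 nucleotides 47 of 84 rows without an exon and 47 of 54 with one were at 0, and at 101 to 150 nucleotides 18 of 94 and 37 of 43. The highest of these rows averaged 8404 counts and is not named here, while SNORA73B, inside SNHG3, averaged 3230. All small nucleolar and Cajal body RNA rows, inside and outside the host genes, were also summed, leaving out SNORD3A. The sums were 559, 514 and 622 CPM in FLAG and 595, 544 and 573 CPM in VPS72, and the groups overlapped. How much of each sum came from single abundant rows was not examined. The level of SNORD3A and the sum with it are not given here.

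Rows named as long non-coding RNAs stood beside the host genes as follows. Among the host genes SNHG32, named C6orf48 in GENCODE v29, is classed there as protein-coding. Of 294 tested rows named LINC and digits and 337 ending in -AS and digits, edgeR called 0 in each class, with 20 and 24 at an unadjusted p under 0.05, beside 11.5% of all tested genes. Their median log2 fold changes were -0.06 and -0.09, and their median levels 1.91 and 2.0 CPM, against 16.9 CPM for the tested host genes.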
